A study of Mus musculus with 40 samples.

Results

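Interferon-stimulated genes other than the guanylate-binding protein (GBP) and p200 families were followed in mouse CD4+ T cells by RNA-seq. The members were chosen by name, as a list of 48 interferon-stimulated gene symbols, and 46 of them were rows of the table of 21950 genes. Mx1 and Mx2 were not analysed here. The study asked how store-operated calcium entry and the transcription factor NFAT act on the stability of induced regulatory T cells. Its 24 RNA-seq libraries form 8 groups of 3. Conventional T cells (Tconvs) were analysed at rest and after activation. Thymus-derived regulatory T cells (tTregs, CD4+ Foxp3-GFP+, called nTreg in the labels) were also analysed at rest and after activation. These 4 groups came from spleens of Foxp3-GFP mice of 2 to 4 months of age on the C57BL/6 background. Induced regulatory T cells (iTregs) were made from naive Foxp3-reporter-negative CD4+ cells of mice aged 6 weeks. They were cultured on plate-bound anti-CD3 and anti-CD28 with TGF-β at 2 ng per ml and recombinant human interleukin 2 for 4 days, sorted on the Foxp3 reporter and rested for 1 day. One iTreg group stayed at rest, one was restimulated through CD3 and CD28, one was restimulated with an ORAI channel inhibitor (labelled ORAIinh, which corresponds to CM-4620 in the study's methods), and one was restimulated with cyclosporin A (CsA), an inhibitor of the phosphatase calcineurin. The cell type label of the CsA libraries reads Treg. The length of activation or restimulation and the inhibitor doses for these libraries were not given in the sources used here. The iTreg groups thus differ from the others in the age of the mice and in days of induction culture. That culture held anti-CD3, anti-CD28, TGF-β and recombinant human interleukin 2. These differences cannot be told apart from cell identity.

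Interferons act through cell-surface receptors, JAK kinases and STAT proteins. Type I interferons act mainly on interferon-stimulated response elements (ISREs), whereas interferon-γ acts mainly on gamma-activated sites (GAS), and IRF1 made in response can act on ISREs as well. The induced proteins detect or destroy foreign nucleic acid, tag proteins with the ubiquitin-like ISG15, block entry or release of viruses and guard vacuoles against bacteria and parasites. Some of these genes are also read in T cells without added interferon, as markers of activation (Ly6a, which encodes Sca-1) or of quiescence (the Schlafen genes).

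Promoter sequence was taken from RefSeq on GRCm38.p6, from 250 bases before to 50 after the start of transcription, and 35 of the 46 members had an entry. The ISRE letters, that is 2 copies of GAAA with any 2 bases between them, searched on both strands, were present in 19 of the 35 promoters, or 54.3%, and in 3.99% of the promoters of all 27025 genes. The GAS letters, TTC and GAA with any 3 bases between them, were present in 8, or 22.9%, against 9.55% of all promoters. The NFAT core GGAAA was present in 30, or 85.7%, against 64.4%, and it overlaps an ISRE match wherever a G stands before its first letters. The AP-1 letters TGANTCA were present in 9, or 25.7%, against 8.97%. A match of letters describes the sequence and is not evidence of binding. The 140 bases before the start are printed for 8 members of several roles, with ISRE matches in capitals on the strand of the gene. They were chosen after their values were seen, from members that hold a match, and they are shown so that the same element can be read beside genes that moved in opposite directions. Their positions and strands are chr19:34640749-34640888 (+) for Ifit1, chr19:34601969-34602108 (-) for Ifit1bl1, chr12:26456453-26456592 (-) for Rsad2, chr4:156200819-156200958 (-) for Isg15, chr11:48871421-48871560 (-) for Irgm1, chr11:58199416-58199555 (+) for Igtp, chr8:71537473-71537612 (-) for Bst2 and chr7:140955962-140956101 (-) for Ifitm2.
Ifit1: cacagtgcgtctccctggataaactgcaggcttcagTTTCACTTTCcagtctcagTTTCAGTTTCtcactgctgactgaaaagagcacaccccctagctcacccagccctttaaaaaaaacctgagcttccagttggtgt
Ifit1bl1: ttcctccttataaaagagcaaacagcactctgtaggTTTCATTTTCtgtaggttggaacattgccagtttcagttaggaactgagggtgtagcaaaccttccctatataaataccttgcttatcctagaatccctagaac
Rsad2: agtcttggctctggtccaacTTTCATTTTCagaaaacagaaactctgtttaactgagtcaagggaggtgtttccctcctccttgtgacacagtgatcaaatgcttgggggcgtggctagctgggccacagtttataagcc
Isg15: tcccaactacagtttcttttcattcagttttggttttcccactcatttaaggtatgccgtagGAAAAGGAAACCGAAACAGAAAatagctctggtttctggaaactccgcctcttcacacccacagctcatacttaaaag
Irgm1: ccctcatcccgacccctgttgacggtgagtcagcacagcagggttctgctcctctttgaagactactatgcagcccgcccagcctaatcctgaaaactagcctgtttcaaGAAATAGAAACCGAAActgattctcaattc
Igtp: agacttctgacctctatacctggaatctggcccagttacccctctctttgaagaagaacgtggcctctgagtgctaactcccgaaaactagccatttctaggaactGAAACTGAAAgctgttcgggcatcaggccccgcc
Bst2: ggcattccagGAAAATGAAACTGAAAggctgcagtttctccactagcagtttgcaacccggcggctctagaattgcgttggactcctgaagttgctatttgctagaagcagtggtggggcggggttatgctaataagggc
Ifitm2: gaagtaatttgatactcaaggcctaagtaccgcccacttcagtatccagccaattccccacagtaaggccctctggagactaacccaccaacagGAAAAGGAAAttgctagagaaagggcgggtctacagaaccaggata
The stretches of Ifit1, Isg15, Irgm1 and Bst2 each held more than one ISRE match. Those of Ifit1 were apart, and those of Isg15, Irgm1 and Bst2 overlapped. As given below, Ifit1, Isg15, Irgm1, Igtp, Bst2 and Ifitm2 rose on activation of Tconvs while Ifit1bl1 and Rsad2 fell. Only members with a match were printed, so the presence of a match on both sides was fixed by that choice. Ifit1bl1 had 2 promoter windows, of which 1 is printed.

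**Figure D1:**
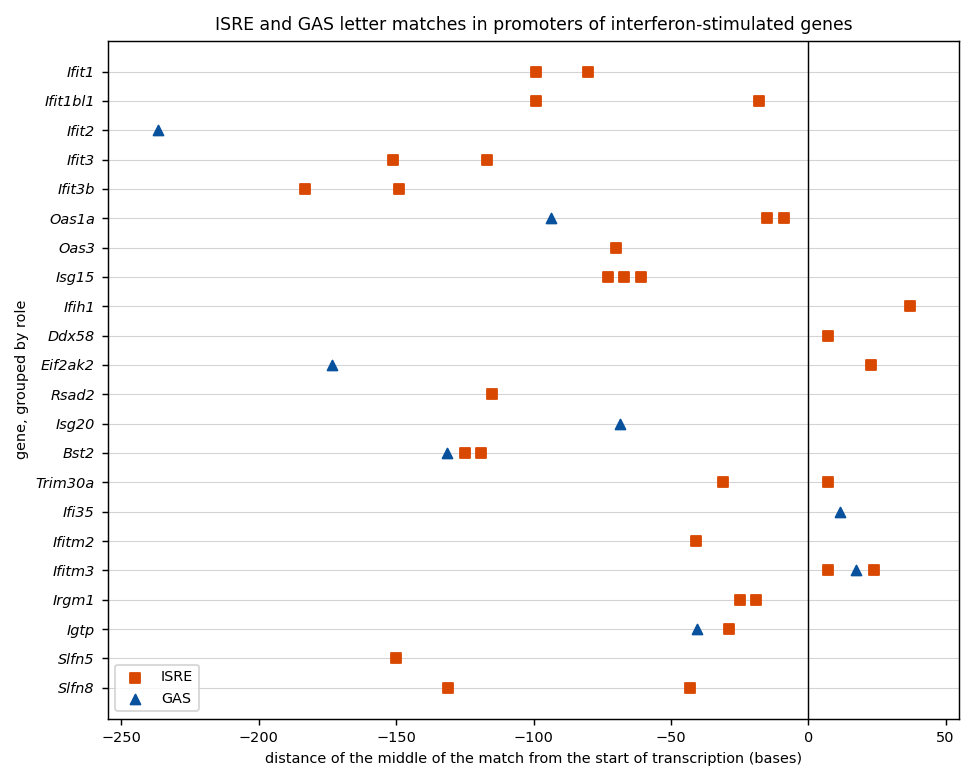
Position of ISRE (orange squares) and GAS (blue triangles) letter matches in member promoters that hold either, by distance in bases from the start of transcription (0 marks the start). ISRE matches occur in 19 of 35 promoters and GAS matches in 8 of 35, most of them before the start.

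Values are normalized counts, that is, reads on a gene divided by one size factor per library. The libraries held from 5256800 to 15685200 reads on genes, and activated tTregs were the shallowest group. A count of 3 reads, taken as the floor, was worth between 2.12 and 5.45 normalized counts. Replicates of a group differed by 2.69 to 36.3 times the variance that counting gives. Nothing in the labels says that they came from separate animals or cultures, so p-values measure the spread between libraries, which may be technical. T cell markers (Cd3d, Cd3e, Cd3g, Cd4, Lck and Cd28) were above 0 in every group and summed to between 25477 and 54122. Markers of regulatory T cells (Foxp3, Ctla4, Il2ra and Ikzf2) summed to between 458 and 478 in resting Tconvs and between 25348 and 28206 in resting tTregs. Markers of other blood cells were highest in resting Tconvs for the NK and CD8 list (652 to 671 against 105 to 453 in the other Tconv and tTreg groups and 154 to 273 in the iTreg groups) and the myeloid list (36.0 to 43.9 against 18.9 at most elsewhere). The B cell list was lowest in the Tconv groups, at 18.0 to 31.9, and reached 128 to 143 in resting tTregs. The erythroid list was highest in resting iTregs, at 25.8 to 30.3. The part of such cells in the values below was not tested, and in bulk libraries fewer cells of a type and less RNA per cell cannot be told apart.

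Across the 8 groups the members did not follow a single order. The highest group mean was in activated Tconvs for 18 of the 46 members (39.1%, against 10.6% of 11725 genes), in resting Tconvs for 11 (23.9% against 22.4%), in resting tTregs for 7 (15.2% against 16.7%), in resting iTregs for 4 (8.70% against 12.8%) and in the other 4 groups for 6. The 4 that peaked in resting iTregs were Isg20 and the 3 IFITM genes. The lowest group mean was in resting iTregs for 13 members (28.3%, against 9.55% of all genes). The mean log2 level of the 46 members per library was 8.05 ± 0.03 (SD, n = 3) in Tconvs at rest and 8.65 ± 0.08 once activated, and for tTregs it was 7.88 ± 0.14 and 7.40 ± 0.20. In the iTreg groups it was 7.18 ± 0.15 at rest, 7.21 ± 0.08 after restimulation, 7.35 ± 0.04 with the ORAI inhibitor and 7.24 ± 0.03 with CsA. These summaries were not tested.

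**Figure D2:**
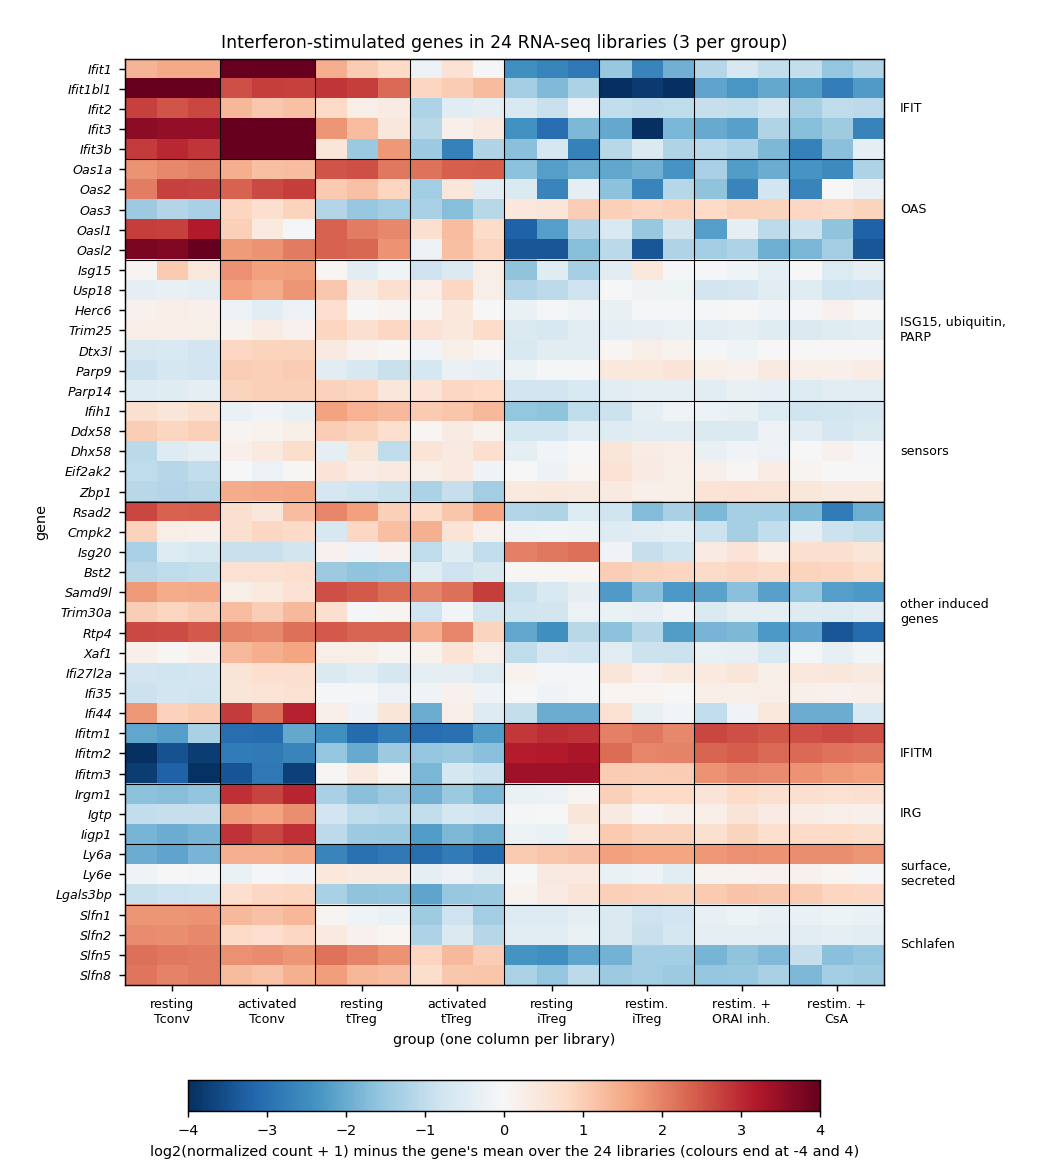
Level of each of the 46 members (rows, grouped by role) in each of the 24 libraries (columns, 3 per group), as log2(normalized count + 1) minus the gene's mean over the libraries. Most IFIT, OAS and Schlafen rows are red in the Tconv columns and blue in the iTreg columns (Oas3 is an exception), the 3 IFITM rows show the reverse, and the 3 IRG rows are reddest in activated Tconvs.

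The first comparison asked which members respond to activation in Tconvs. Of the 46 members tested, 21 rose and 14 fell, beside 24.5% of the 11495 genes tested that rose and 25.7% that fell (50.2% in either direction). The median log2 fold change was 0.53 over the members and -0.04 over all genes tested. Here and below, rises and falls had to pass limma at a Benjamini-Hochberg adjusted p under 0.05 with a log2 fold change past 0.5 in size. Rises were found in all 3 immunity-related GTPases, 5 of the 7 genes of the ISG15, ubiquitin and PARP group and 3 of the 5 sensors. Falls were found in 3 of the 4 Schlafen genes, 3 of the 5 OAS genes and 2 of the 5 IFIT genes. Some summed markers of other cells were also lower in activated than in resting Tconvs. The NK and CD8 list summed to 407 to 453 against 652 to 671, with members moving in opposite directions. Mean Klrd1 went from 396 to 16.9, Klrb1c from 22.7 to 1.28 and Cd8b1 from 229 to 112. Mean Eomes rose from 10.6 to 293. The myeloid list stood at 6.90 to 18.9 against 36.0 to 43.9 and the dendritic list at 39.5 to 59.4 against 174 to 219. Nearly all of the dendritic sum came from Zbtb46 and Ccr9, which T cells can also make. The B cell list overlapped, at 18.0 to 26.7 against 20.2 to 31.9. In activated Tconvs 2 of 6 myeloid and 2 of 6 dendritic markers were at 0, and the part of such cells in the changes was not tested.

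The largest rises were in immunity-related GTPases, which act on the vacuoles of intracellular pathogens. Iigp1, an effector of this family, was 364, 332 and 359 normalized counts in the resting Tconv libraries and 9788, 8412 and 9980 in the activated ones. The activated libraries were all far above the resting ones, with a log2 fold change of 4.73 ± 0.15 (SE, adjusted p = 2.07e-12). Irgm1, a regulator of the family (chr11:48861968-48871683, minus strand, GRCm38), went from 256, 247 and 268 to 6103, 5226 and 6655, a log2 fold change of 4.53 ± 0.14 (adjusted p = 2.07e-12). Igtp, a second regulator on the same chromosome, went from 2916, 3077 and 3075 to 19089, 17762 and 21096, or 2.67 ± 0.13 (adjusted p = 2.68e-10). None of these 3 genes had overlapping libraries. The Igtp gene shares 8.01% of its exon bases with Irgm2 by position, so the origin of some Igtp reads is uncertain.

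Among surface proteins, Ly6a was 1865, 1714 and 2031 at rest and 19963, 19784 and 21169 after activation of Tconvs. The groups were widely apart, by 3.44 ± 0.10 on the log2 scale (adjusted p = 7.87e-13), although 19.0% of the 50-base stretches of its exons also occur in other genes, mainly of the Ly6 family. Lgals3bp, a secreted galectin-binding glycoprotein, rose by 1.62 ± 0.15 (adjusted p = 3.22e-07), from a mean of 383 to 1180. Ly6e, which restricts entry of coronaviruses, was 6912 ± 423 (SD, n = 3) at rest and 6641 ± 530 after activation, with overlapping libraries (adjusted p = 0.644). In the ISG15 group, Usp18, the protease that removes ISG15 and damps the type I receptor, went from 167, 174 and 169 to 671, 611 and 738 (log2 fold change 1.98 ± 0.18, adjusted p = 1.94e-07). Isg15 itself went from 26.7, 52.5 and 33.4 to 89.8, 78.5 and 81.4 (a fold of 2.27, adjusted p = 0.00687). All activated libraries were above all resting ones for both genes. The adjoining genes Parp9 and Dtx3l, whose products form a ubiquitin ligase complex, rose by 1.77 ± 0.12 (adjusted p = 1.23e-08) and 1.55 ± 0.10 (adjusted p = 4e-09), and they share up to 9.4% of exon bases with each other. Parp14 from the same cluster on chromosome 16 rose by 1.38 ± 0.11 (adjusted p = 8.01e-08). Trim25, a ubiquitin ligase, stood at 656 ± 6.86 and 636 ± 35.3 (adjusted p = 0.69).

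The sensors of foreign nucleic acid divided. Zbp1, a sensor of Z-form nucleic acid, was 439, 422 and 442 in resting and 2661, 2713 and 2806 in activated Tconvs. This was a rise of 2.65 ± 0.10 on the log2 scale (adjusted p = 1.49e-11) with the groups well apart. Eif2ak2, the RNA-dependent kinase PKR, rose by 0.98 ± 0.14 (adjusted p = 2.93e-05), and Dhx58 (LGP2) rose by 1.10 ± 0.29 (adjusted p = 0.0045). In contrast, the RNA helicase genes Ifih1 (MDA5) and Ddx58 (RIG-I) fell by 0.80 ± 0.15 (adjusted p = 0.00036) and 0.77 ± 0.10 (adjusted p = 1.43e-05). Ddx58 was 708, 651 and 690 at rest and 383, 393 and 423 after activation, without overlap.

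The IFIT genes, which encode RNA-binding antiviral proteins and lie together on chromosome 19, also divided. Ifit1 was 161, 177 and 177 in resting Tconvs and 1130, 1054 and 1268 in activated Tconvs. The activated libraries were several times the resting ones, with a log2 fold change of 2.73 ± 0.21 (adjusted p = 3.27e-08). Its neighbour Ifit1bl1, an Ifit1-like gene, moved the other way, from 1915, 1742 and 1986 to 372, 416 and 412 (-2.23 ± 0.17, adjusted p = 2.68e-08). Ifit2 went from 2071, 1755 and 1966 to 782, 656 and 694 (-1.44 ± 0.22, adjusted p = 3.58e-05). The resting libraries of both genes were all above the activated ones. Ifit3 and Ifit3b had higher means after activation, 328 against 190 and 122 against 47.2, and did not pass the test (adjusted p = 0.107 and 0.0931). All activated Tconv libraries of both were above all resting ones. Ifit3 was 197, 187 and 187 at rest and 358, 276 and 349 after activation. The spread used in the test also takes in the tTreg and iTreg libraries. These 2 genes share 51.2% and 45.0% of their 50-base stretches with each other or with other genes, so their split of reads is uncertain.

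Among the OAS genes, which encode makers of the oligoadenylates that switch on RNase L and their relatives, Oas3 was the one that rose in Tconvs. It went from 102, 122 and 112 to 505, 431 and 512 (2.10 ± 0.18, adjusted p = 9.45e-08). Oasl1, encoding an OAS-like protein that restrains IRF7 translation, went from 62.7, 61.0 and 83.4 to 17.1, 11.2 and 7.78 (-2.48 ± 0.42, adjusted p = 0.000112). Oasl2 went from 145, 139 and 182 to 34.1, 36.2 and 44.6 (-1.99 ± 0.43, adjusted p = 0.000981). All resting libraries were above all activated ones for both genes. Oas1a fell by 0.62 ± 0.17 (adjusted p = 0.00592), with 57.6% of its 50-base stretches shared with Oas1g or Oas1b, and Oas2 stood at 34.8 ± 8.80 and 36.5 ± 5.40 (adjusted p = 0.901).

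Of the remaining antiviral genes, Bst2 (tetherin, which holds budding virions at the cell surface), Ifi27l2a, Ifi35, Xaf1 and Ifi44 rose in activated Tconvs. Bst2 was 317, 337 and 353 at rest and 1051, 1046 and 1093 after activation, a tight and complete separation (1.66 ± 0.09, adjusted p = 6.71e-10). Ifi44 rested on few reads, 27 at rest and 96 after activation, a ratio of 3.06 (95% exact interval 1.98 to 4.89). Its call was lost in 5 of 15 alternative settings. Rsad2 (viperin, an antiviral radical SAM enzyme) went from 43.2, 34.7 and 36.0 to 9.88, 8.62 and 15.6 (-1.69 ± 0.34, adjusted p = 0.000467), whereas Cmpk2, its neighbour on chromosome 12, stood at 61.0 ± 18.4 and 73.1 ± 4.38 with overlapping libraries (adjusted p = 0.542). Samd9l, an inhibitor of translation and growth, fell by 1.17 ± 0.18 (adjusted p = 3.99e-05). Of the IFITM genes, which encode membrane proteins that hinder virus entry, Ifitm2 rose from a mean of 20.7 to 42.8 (1.04 ± 0.17, adjusted p = 8.26e-05). Ifitm1 had 25 reads at rest and 15 after activation, a ratio of 1.93 with a 95% exact interval of 0.98 to 3.94, and its call was lost in 10 of 14 settings. Such intervals cover counting error only, and PCR copies without molecular identifiers are not independent molecules. Of the Schlafen genes, linked to quiescence and proliferation of T cells, Slfn2 went from 11816, 11603 and 12000 to 5427, 5051 and 5579 (-1.14 ± 0.13, adjusted p = 2.71e-06). Slfn8 fell by 0.77 ± 0.15 (adjusted p = 0.000382) and Slfn1 by 0.52 ± 0.13 (adjusted p = 0.00336). Herc6, of the ISG15, ubiquitin and PARP group, fell by 0.51 ± 0.16 (adjusted p = 0.0124). The falls of Slfn1 and Herc6 lay at the threshold of size and were lost with edgeR and DESeq2.

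In tTregs the activation comparison gave 2 members that rose and 18 that fell, beside 11.9% and 10.0% of all genes tested (21.9% in either direction). The median log2 fold change was -0.27 over the members and 0.00 over all genes. All 5 IFIT genes, 3 of the 5 OAS genes and 3 of the 4 Schlafen genes fell, and none of the 7 genes of the ISG15, ubiquitin and PARP group passed the test in either direction. Leaving out 1 library moved the count between 14 and 21.

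The 2 rises were in Bst2 and Dhx58. Bst2 was 248, 224 and 233 in resting tTregs and 486, 388 and 441 in activated tTregs, without overlap (0.89 ± 0.09, adjusted p = 6.48e-06). Dhx58 was 73.5, 132 and 46.7 at rest and 137, 122 and 153 after activation, so that the libraries overlapped (0.82 ± 0.29, adjusted p = 0.0421), and its call was lost in 7 of 15 settings. Among the falls, Ifit1bl1 went from 447, 417 and 296 to 110, 123 and 147 (-1.59 ± 0.17, adjusted p = 1.08e-05). Every activated library was below every resting one. Ifit2 fell by 1.14 ± 0.22 (adjusted p = 0.0011), and Ifit1 went from 172, 125 and 107 to 52.5, 91.8 and 59.9 (-0.99 ± 0.21, adjusted p = 0.0024), the opposite direction to Tconvs. Ifit3 went from 55.3, 37.6 and 21.6 to 6.73, 18.0 and 20.0 (-1.33 ± 0.40, adjusted p = 0.0183). The lowest resting library of Ifit3 was only a little above the highest activated one. Ifit3b was at the floor after activation, with 2 reads over the 3 libraries against 28 at rest, a ratio of 12 (95% exact interval 3.02 to 104). That call, like those of Ifit3, Oas2, Oasl1 and Rtp4, was lost in at least 4 settings.

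Oasl2 went from 53.5, 51.9 and 36.4 to 8.08, 23.7 and 18.2 in tTregs (-1.55 ± 0.43, adjusted p = 0.0126), again without overlap. Oas2 had 32 reads at rest and 11 after activation, a ratio of 2.49 (1.22 to 5.46), and lost its call in 11 of 15 settings. Oasl1 went from 46.3, 37.6 and 34.2 to 13.5, 20.8 and 14.5 (-1.24 ± 0.42, adjusted p = 0.0329). Slfn2 went from 4183, 3602 and 3367 to 1357, 2101 and 1430 (-1.21 ± 0.13, adjusted p = 1.46e-05), with the third and first activated libraries lowest, and Slfn1 and Slfn5 fell by 1.10 ± 0.13 (adjusted p = 3.3e-05) and 0.94 ± 0.14 (adjusted p = 0.000191). The other falls were in Ddx58, Iigp1, Ifitm3, Isg20, Trim30a, Rtp4 and Ly6e, from 0.66 (Iigp1, adjusted p = 0.0034) to 1.29 (Ifitm3, adjusted p = 0.00464) on the log2 scale. Myeloid markers summed to between 9.08 and 11.4 in resting and between 1.35 and 6.62 in activated tTregs, and dendritic cell markers to between 196 and 229 and between 57.9 and 104. These lower values moved with the falls, and their part in them was not tested. The myeloid sums of activated tTregs amount to a few reads per library, since 3 reads were worth 2.84 to 5.45 normalized counts there. Only 1 of 6 myeloid markers, Fcer1g, was tested. It was at or under the floor in both tTreg groups and did not pass limma (adjusted p = 0.247). Of the dendritic list, 3 of 6 markers (Flt3, Siglech and Clec9a) were at 0 in both tTreg groups, and nearly all of its sum came from Zbtb46 and Ccr9, which T cells can also make.

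**Figure D3:**
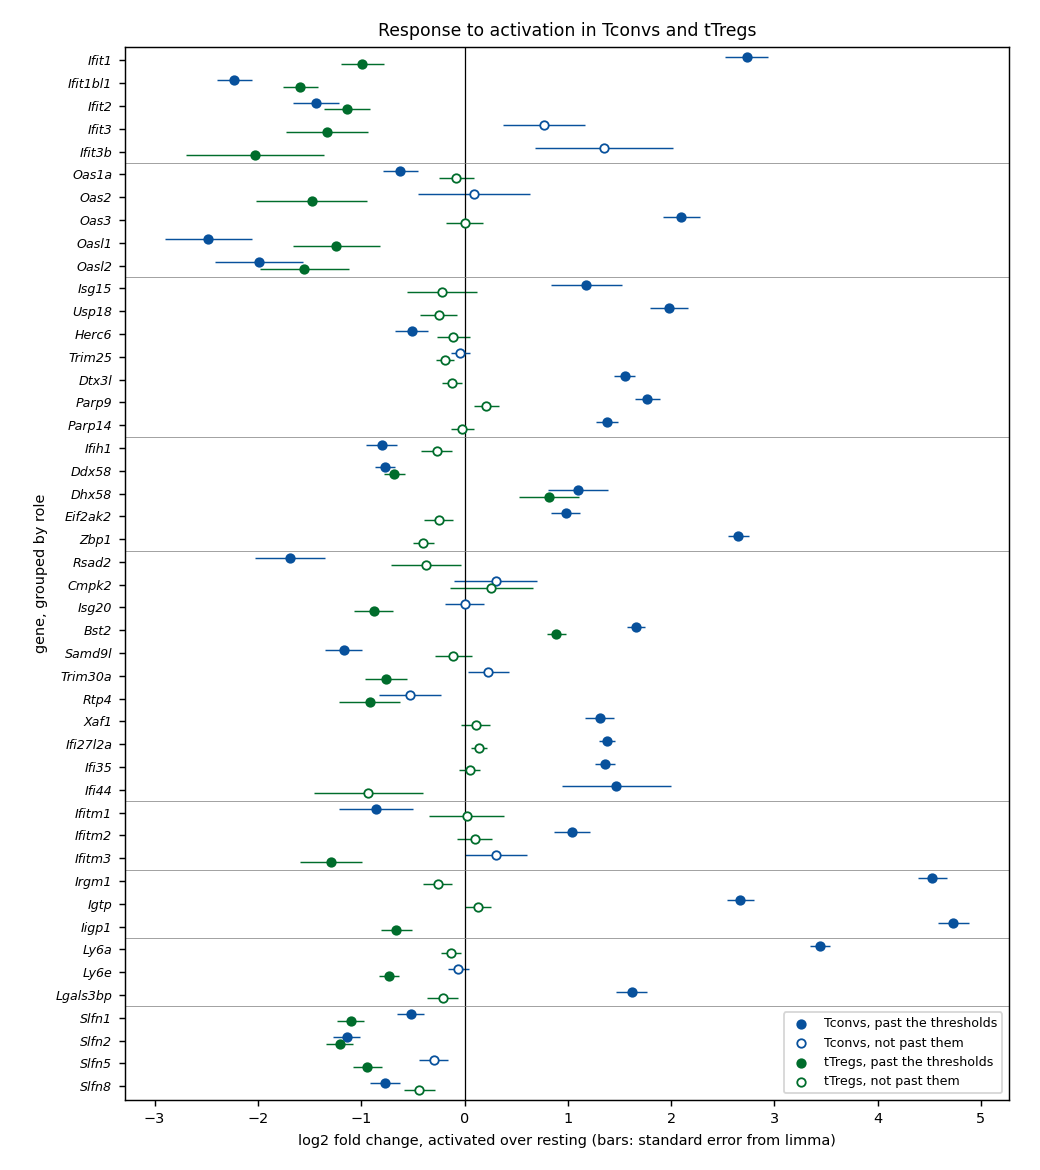
Log2 fold change of each member, activated over resting, in Tconvs (blue) and tTregs (green), with standard errors from limma. Filled points passed the thresholds. Blue points reach 4.73 for Iigp1 and -2.48 for Oasl1, while green points lie between -2.03 and 0.89.

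Whether the responses of Tconvs and tTregs differ was tested as an interaction. The response was higher in Tconvs for 28 members and lower for 3, beside 17.0% and 17.7% of all genes (34.7% in either direction), with a median difference of 0.97 over the members and -0.05 over all genes. For Iigp1 the log2 response differed by 5.40 ± 0.21 (adjusted p = 1.1e-10), since it was 639, 479 and 475 in resting and 280, 381 and 341 in activated tTregs. For Irgm1, at 325, 252 and 292 in resting and 210, 290 and 225 in activated tTregs, the difference was 4.80 ± 0.20 (adjusted p = 2.42e-10). The tTreg libraries of Irgm1 overlapped. For Ifit1 the difference was 3.72 ± 0.30 (adjusted p = 2.22e-07), and for Ly6a, at 1043 ± 121 and 949 ± 96.3 in resting and activated tTregs, it was 3.58 ± 0.14 (adjusted p = 1.1e-10). For Ifit3b, with 28 reads in resting and 2 in activated tTregs, it was 3.38 ± 0.95 (adjusted p = 0.0107). Among the other members with a higher response in Tconvs were Zbp1 (3.05 ± 0.14, adjusted p = 7.74e-10), Igtp (2.54 ± 0.19, adjusted p = 9.31e-08) and Usp18 (2.22 ± 0.25, adjusted p = 7.4e-06). Ifit1 and Iigp1 rose in Tconvs and fell in tTregs. The 3 members with a lower response in Tconvs were Samd9l (-1.06 ± 0.25, adjusted p = 0.0037), Rsad2 (-1.32 ± 0.47, adjusted p = 0.0381) and Ifit1bl1 (-0.64 ± 0.24, adjusted p = 0.0433), and the last 2 calls were lost in 15 and 14 of 21 settings. For 15 members, among them Ifit2, Slfn2, Ddx58 and Cmpk2, the interaction did not pass the thresholds. For Slfn2 it was 0.07 ± 0.19 and for Ddx58 -0.09 ± 0.15.

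At rest, tTregs and Tconvs were compared next. Here 13 members were higher in tTregs and 15 lower, beside 20.5% and 18.2% of all genes (38.6% in either direction), with medians of -0.03 for members and -0.02 for all genes. Ifitm3 was 4.11, 6.57 and 3.51 in Tconvs and 71.7, 92.1 and 72.9 in tTregs. The tTreg libraries were far above, by 3.83 ± 0.30 on the log2 scale (adjusted p = 7.09e-08), with 15 reads in all in the Tconv libraries. Ifitm2 was higher by 2.13 ± 0.17 (adjusted p = 7.09e-08), Eif2ak2 by 1.45 ± 0.14 (adjusted p = 8.18e-07), Parp14 by 1.19 ± 0.11 (adjusted p = 6.12e-07) and Usp18 by 1.04 ± 0.18 (adjusted p = 0.000193). The tTreg libraries of these genes were all above those of Tconvs. Lower in tTregs were 4 IFIT genes, with Ifit1bl1 at -2.30 ± 0.17 (adjusted p = 2.89e-08), Ifit2 at -2.18 ± 0.22 (adjusted p = 8.07e-07) and Ifit3 at -2.38 ± 0.40 (adjusted p = 0.000156), whereas Ifit1 was 172 ± 9.13 in Tconvs and 135 ± 33.8 in tTregs (adjusted p = 0.147). Ifit3b had 150 and 28 reads, a ratio of 4.64 (3.08 to 7.21). Slfn1 (-1.90 ± 0.13, adjusted p = 1.71e-08) and Slfn2 (-1.67 ± 0.13, adjusted p = 6.85e-08) were also lower. The summed NK and CD8 markers, at 652 to 671 in Tconvs and 161 to 178 in tTregs, and the myeloid markers, at 36.0 to 43.9 and 9.08 to 11.4, were also lower in tTregs. The B cell list went the other way, at 20.2 to 31.9 and 128 to 143, with Cd79b at means of 7.97 and 124. The erythroid list was also higher in tTregs, at 0.878 to 6.17 and 6.49 to 13.6. Their part in these differences was not tested.

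Resting iTregs were then set against both resting groups. Against Tconvs, 16 members were higher and 24 lower (32.8% and 30.8% of all genes, 63.6% in either direction), with a median of -0.74 over members and 0.02 over all genes. Against tTregs, 14 were higher and 25 lower (32.3% and 31.1% of all genes, 63.4% in either direction), with a median of -0.75 against 0.02. Both comparisons use the same iTreg libraries. Side by side, 5 and 5 of the 5 IFIT genes and 4 and 4 of the 5 OAS genes were lower, and 3 and 3 of the IFITM genes and 3 and 3 of the IRG genes were higher.

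Most IFIT and OAS transcripts were low in resting iTregs, some at the floor, with Ifit2 and Oas3 as exceptions. Ifit2, at 200, 167 and 261 in iTregs, was lower than in Tconvs (-3.22 ± 0.22, adjusted p = 3.28e-09) and tTregs (-1.04 ± 0.22, adjusted p = 0.000505) but well covered, with 700 reads. Oasl2 was 0, 0 and 2.28 normalized counts in iTregs, against 145, 139 and 182 in Tconvs and 53.5, 51.9 and 36.4 in tTregs. The 3 reads in iTregs against 496 in Tconvs gave a ratio of 170 (95% exact interval 57.7 to 825), and against the 131 reads of tTregs it was 51.7 (17.3 to 254). Ifit3 had 8 reads against 604 and 109, ratios of 77.4 (39.0 to 180) and 16.1 (7.91 to 38.3). Ifit3b had 4 reads against 150 and 28, ratios of 38.4 (14.7 to 143) and 8.29 (2.90 to 32.5). The tTreg libraries of Ifit3b overlapped those of iTregs. Oasl1 had 5 reads against 221 and 110, with ratios of 45.3 (19.1 to 141) and 26.1 (10.8 to 81.8). For Ifit1, at 10.5, 9.08 and 7.59 in iTregs, the ratios on reads were 19.4 (13.3 to 29.2) and 15.5 (10.6 to 23.5). Ifit1bl1, better covered at 23.2, 17.2 and 25.0, was lower than in Tconvs (-6.38 ± 0.17, adjusted p = 1.3e-13) and than in tTregs (-4.08 ± 0.17, adjusted p = 1.99e-11). Oas1a was lower, with log2 differences of -3.84 ± 0.17 (adjusted p = 3.69e-11) and -4.35 ± 0.17 (adjusted p = 1.37e-11). Slfn5, at 15.8, 15.1 and 19.7 in iTregs against means of 388 and 353, was lower, with log2 differences of -4.45 ± 0.14 (adjusted p = 8.79e-13) and -4.31 ± 0.14 (adjusted p = 2.21e-12). Rtp4, a receptor chaperone, had 19 reads in iTregs against 410 and 308, ratios of 22.1 (14.0 to 37.1) and 19.2 (12.1 to 32.3). Apart from Ifit3b, no iTreg library of these genes reached any Tconv or tTreg library.

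Oas3 was higher in iTregs, at 372, 387 and 555 in iTregs against 112 ± 10.1 in Tconvs and 108 ± 13.8 in tTregs, which was higher by 1.94 ± 0.18 (adjusted p = 1.13e-07) and 1.99 ± 0.18 (adjusted p = 9.53e-08). The sensors divided again, with Ifih1 lower, with log2 differences of -1.97 ± 0.15 (adjusted p = 2.07e-08) and -2.82 ± 0.15 (adjusted p = 4.45e-10), and Zbp1 higher by 1.51 ± 0.10 (adjusted p = 2.76e-09) and 1.17 ± 0.10 (adjusted p = 5.6e-08). Usp18 was lower, with log2 differences of -0.67 ± 0.18 (adjusted p = 0.0035) and -1.71 ± 0.18 (adjusted p = 5.55e-07). Ifitm2 was 2614, 2663 and 2825 in iTregs, against 16.5, 25.3 and 20.2 in Tconvs and 101, 72.7 and 108 in tTregs. The iTreg libraries were higher by 6.98 ± 0.17 (adjusted p = 6.12e-14) and 4.85 ± 0.17 (adjusted p = 3.6e-12), although Ifitm2 shares 40.9% of its exon bases with the overlapping gene Gm45717. Ifitm3 was 739, 746 and 731, and its 2403 reads against 15 in Tconvs gave a ratio of 156 (94.5 to 280), while its difference from tTregs was 3.22 ± 0.30 (adjusted p = 1.8e-07). Ifitm1 was 216, 235 and 223 in iTregs and between 2.60 and 11.4 in resting Tconvs and tTregs, with ratios on reads of 28.6 (19.2 to 44.4) and 61.8 (33.4 to 129). The 3 IFITM genes lie within one stretch of chromosome 7, from position 140954837 (Ifitm2) to 141010770 (Ifitm3) on GRCm38. Ly6a was 15113, 15799 and 16822 in iTregs, higher by 3.09 ± 0.10 (adjusted p = 7.62e-13) and 3.94 ± 0.10 (adjusted p = 1.55e-13). Isg20, an RNA exonuclease, was 652, 692 and 745 in iTregs against means of 91.1 and 167, higher by 2.95 ± 0.19 (adjusted p = 2.66e-09) and 2.06 ± 0.19 (adjusted p = 1.78e-07). Dendritic cell markers summed to between 13.7 and 22.0 in iTregs against at least 174 in both other resting groups. Nearly all of the latter came from Ccr9 and Zbtb46, which T cells can also make. Their means were 111 and 81.8 in Tconvs, 109 and 97.9 in tTregs and 1.1 and 15.9 in iTregs. The erythroid list was higher in iTregs, at 25.8 to 30.3 against at most 13.6. The B cell list, at 56.9 to 63.7, lay between Tconvs and tTregs. The part of such cells was not tested.

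**Figure D4:**
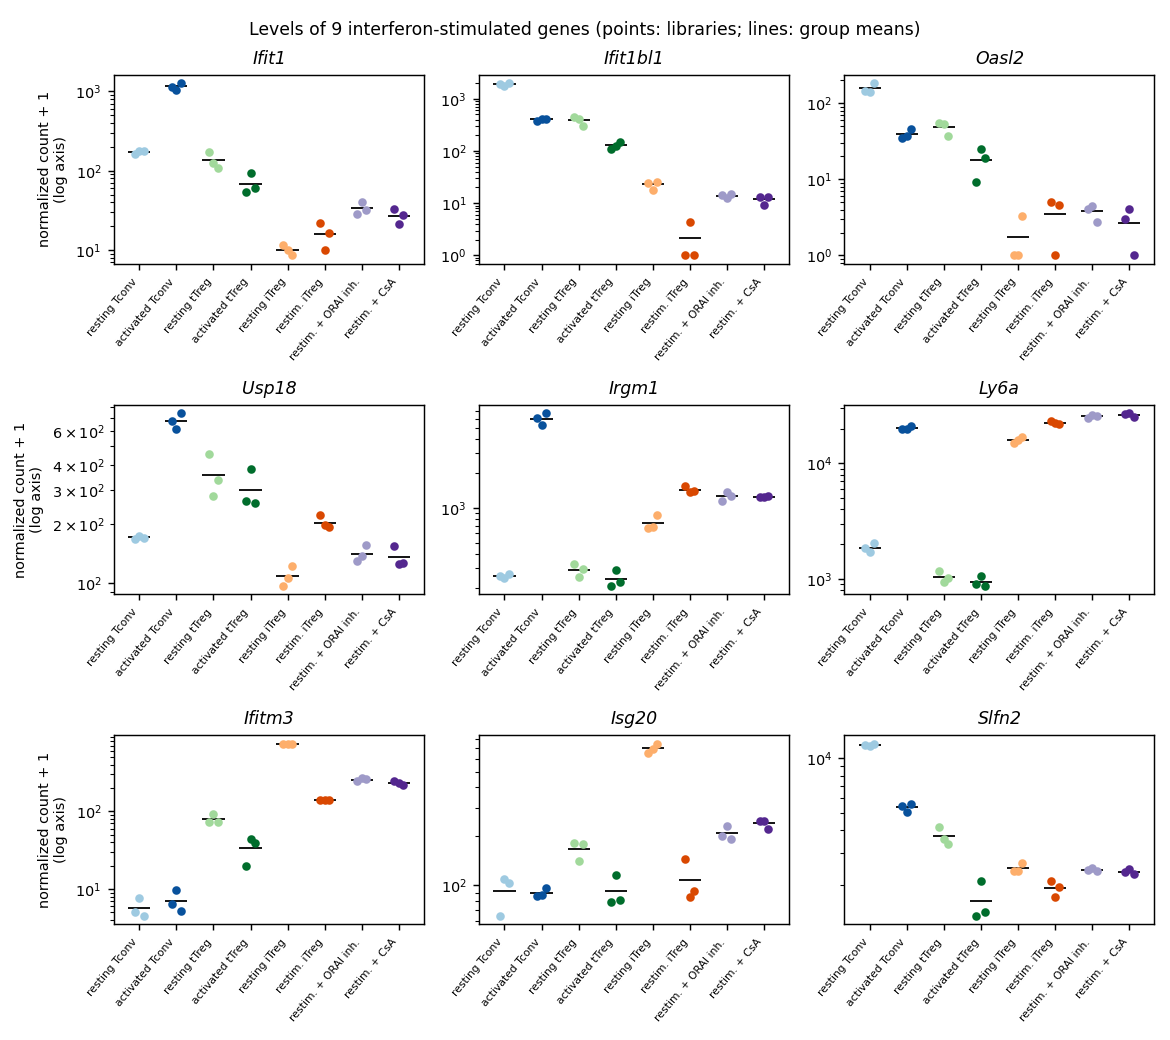
Normalized count + 1 (log axis) of 9 members in all 8 groups. Points are libraries and lines are group means of 3. Ifit1bl1 runs from 1881 in resting Tconvs to 1.12 in restimulated iTregs, whereas Ifitm3 runs from 4.73 in resting Tconvs to 738 in resting iTregs.

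Restimulation of iTregs was tested for the 38 members that reached 10 normalized counts in 3 or more of the 12 iTreg libraries. The other 8 (Ifit3, Ifit3b, Oas2, Oasl1, Oasl2, Rsad2, Rtp4 and Ifi44) stayed low in all 4 iTreg groups, with group means of at most 6.21 normalized counts. Of the 38, 11 rose and 7 fell, beside 6.70% and 6.13% of the 11105 genes tested (12.8% in either direction), and the medians were 0.20 for members and -0.01 for all genes. Leaving out 1 library moved the count between 15 and 19. The 11 rises took in 4 of 7 genes of the ISG15, ubiquitin and PARP group, 2 of 5 sensors and 2 of 3 IRG genes, and the 7 falls took in all 3 IFITM genes.

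Iigp1 went from 1149, 1106 and 1538 in resting to 2747, 2496 and 2503 in restimulated iTregs (1.04 ± 0.10, adjusted p = 2.83e-06). Irgm1 went from 664, 688 and 875 to 1551, 1388 and 1396 (0.97 ± 0.09, adjusted p = 2.4e-06). Restimulated libraries were clearly above the resting ones in both genes, while Igtp, at 6540 ± 1373 and 6850 ± 556, overlapped (0.08 ± 0.11, adjusted p = 0.615). Usp18 went from 95.9, 105 and 121 to 221, 196 and 192 (0.92 ± 0.12, adjusted p = 6.36e-05), Ifih1 rose by 0.94 ± 0.19 (adjusted p = 0.00211) and Bst2 by 0.86 ± 0.06 (adjusted p = 8.31e-08). Isg15 went from 7.38, 17.2 and 9.11 to 18.1, 33.6 and 23.6 (1.14 ± 0.32, adjusted p = 0.0145), with the highest resting library just under the lowest restimulated one. That call was lost in 2 of 15 settings, that of Dhx58 in 3 and that of Slfn5 in 6. Ifit1 was 10.5, 9.08 and 7.59 at rest and 21.2, 8.97 and 15.4 after restimulation, and these libraries overlapped (adjusted p = 0.147).

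Ifitm3 fell from 739, 746 and 731 to 141, 139 and 141 on restimulation (-2.39 ± 0.08, adjusted p = 1.78e-11). The 3 libraries of each group were nearly equal to each other and far from the other group. Ifitm2 went from 2614, 2663 and 2825 to 1378, 1131 and 1158 (-1.15 ± 0.08, adjusted p = 6.35e-08) and Ifitm1 from 216, 235 and 223 to 121, 131 and 114 (-0.88 ± 0.09, adjusted p = 6.23e-06). Isg20 went from 652, 692 and 745 to 144, 84.0 and 91.7 (-2.74 ± 0.15, adjusted p = 1.15e-08). All resting libraries were above all restimulated ones in these genes. Ifit1bl1 had 72 reads at rest and 3 after restimulation, all 3 in one library, a ratio of 22.0 (95% exact interval 7.23 to 109). Samd9l fell by 1.45 ± 0.23 (adjusted p = 0.000275) and Ly6e by 0.54 ± 0.09 (adjusted p = 0.000387), the latter call being lost in 3 of 15 settings.

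The inhibitor comparisons asked which of these levels depend on calcium entry or calcineurin during restimulation. With the ORAI inhibitor, 5 of 38 members were higher and 2 lower than in restimulated iTregs, beside 1.50% and 1.79% of all genes (3.30% in either direction), with medians of 0.09 and 0.01. With CsA, 5 were higher and 1 lower, beside 1.57% and 1.35% (2.92% in either direction). Both comparisons use the same restimulated libraries, and so does the restimulation comparison. The ORAI inhibitor comparison gave Ifit1bl1, Ifit1, Isg20, Ifitm3 and Ifitm1 as higher and Dhx58 and Usp18 as lower. The CsA comparison gave Ifit1bl1, Isg20, Ifitm3, Ifitm1 and Xaf1 as higher and Usp18 as lower.

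Isg20 was 201, 230 and 192 with the ORAI inhibitor and 249, 248 and 222 with CsA, against 144, 84.0 and 91.7 without inhibitor. It was higher by 0.99 ± 0.15 (adjusted p = 0.000893) and 1.20 ± 0.15 (adjusted p = 0.000279), and it stayed below the 652, 692 and 745 of resting iTregs in every library. Ifitm3 was 242, 267 and 259 with the ORAI inhibitor and 242, 229 and 220 with CsA, against 139 to 141 without. The differences were 0.86 ± 0.08 (adjusted p = 6.63e-06) and 0.71 ± 0.08 (adjusted p = 5.29e-05), without overlap. Ifitm1 was 193, 180 and 168 and 181, 186 and 179, against 114 to 131 (0.56 ± 0.09, adjusted p = 0.00164, and 0.57 ± 0.09, adjusted p = 0.00161). Ifitm2 was 1497 ± 82.0 and 1344 ± 80.8 against 1222 ± 135, and the differences of 0.30 ± 0.08 (adjusted p = 0.0278) and 0.14 ± 0.08 (adjusted p = 0.299) were under the threshold of size. Ifit1bl1 had 42 and 35 reads with the inhibitors against 3 without, ratios of 12.8 (4.10 to 64.8) and 10.9 (3.43 to 55.3). Ifit1 was 27.5, 39.6 and 30.7 with the ORAI inhibitor, 31.7, 20.5 and 26.4 with CsA, and 21.2, 8.97 and 15.4 without. The ORAI inhibitor libraries were above the restimulated ones (1.11 ± 0.31, adjusted p = 0.0374), a call that was lost in 8 of 15 settings, and the CsA libraries overlapped them (0.80 ± 0.31, adjusted p = 0.128). Xaf1, a partner of an inhibitor of apoptosis, passed with CsA (0.55 ± 0.16, adjusted p = 0.0464) and lost the call in 9 of 15 settings.

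Usp18 was 129, 136 and 156 with the ORAI inhibitor and 153, 124 and 126 with CsA, against 221, 196 and 192. It was lower, with log2 differences of -0.53 ± 0.12 (adjusted p = 0.0164) and -0.59 ± 0.12 (adjusted p = 0.00835), and all inhibitor libraries lay between the resting mean of 107 and the restimulated libraries. Dhx58 was 76.5, 86.3 and 79.9 with the ORAI inhibitor against 134, 117 and 115 (-0.58 ± 0.13, adjusted p = 0.0122), while CsA gave 93.0, 108 and 88.8 (-0.34 ± 0.13, adjusted p = 0.135). With the ORAI inhibitor, the call of Usp18 was lost in 3 of 15 settings and that of Dhx58 in 2, each on leaving out 1 library. The immunity-related GTPases that had risen did not pass with either inhibitor. For Irgm1 the differences were -0.19 ± 0.09 (adjusted p = 0.276) and -0.20 ± 0.09 (adjusted p = 0.216), and for Iigp1 they were -0.23 ± 0.10 (adjusted p = 0.222) and -0.21 ± 0.10 (adjusted p = 0.234). The inhibitor libraries of both were below the restimulated ones without overlap. Leaving out 1 library moved the count of changed members between 4 and 7 for the ORAI inhibitor and between 5 and 7 for CsA, and the count of 4 came without ORAI inhibitor replicate 1.

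**Figure D5:**
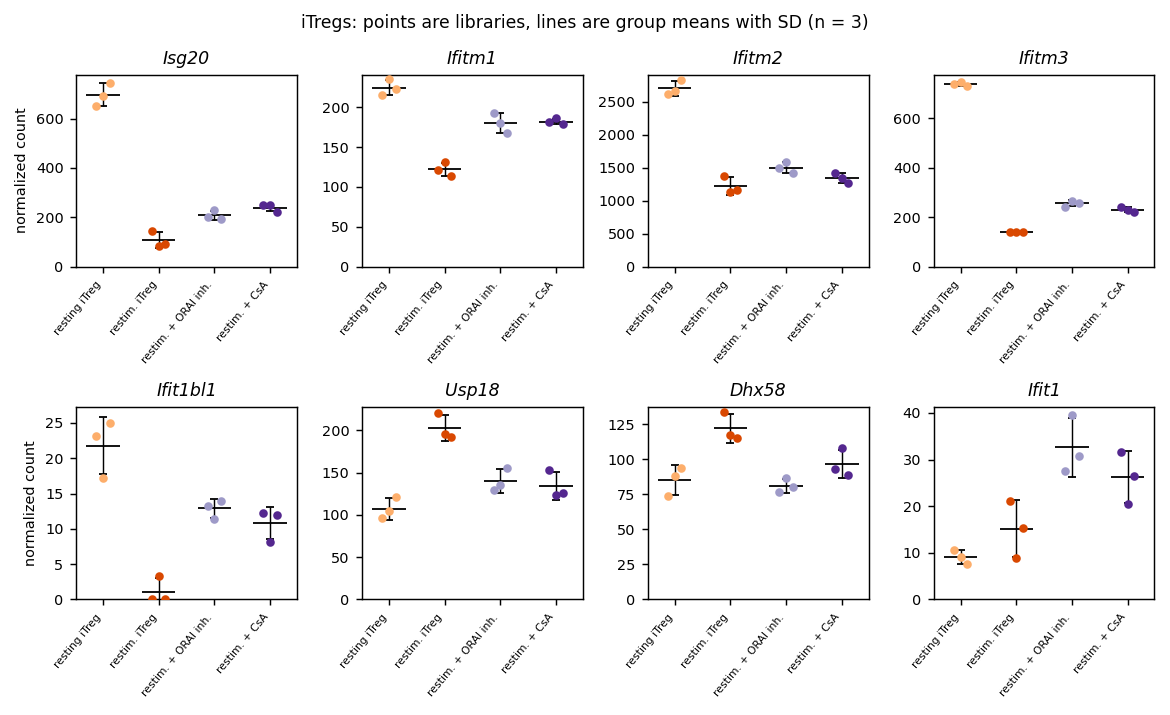
Normalized counts of 8 members in the 4 iTreg groups, from 0. Points are libraries, horizontal lines are means and bars are SD (n = 3). Isg20, Ifitm1 and Ifitm3 are highest at rest, lowest after restimulation and between these with either inhibitor, and Usp18 shows the reverse order.

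Compared directly, the 2 inhibitors gave 0 changed members of 38, beside 0.0991% of all genes that were higher and 0.261% that were lower with the ORAI inhibitor (0.360% in either direction). At an unadjusted p below 0.05, 2 members differed, and edgeR and DESeq2 also called 0. The 95% interval of the log2 difference lay within 0.5 of 0 for 26 members, among them Usp18 (-0.20 to 0.33), Ifitm1 (-0.22 to 0.18), Ifitm3 (-0.01 to 0.31), Irgm1 (-0.19 to 0.21) and Bst2 (-0.16 to 0.09). For the other 12 it reached past 0.5, as for Ifit1bl1 (-0.82 to 1.32), Ifit1 (-0.34 to 0.97), Isg20 (-0.54 to 0.12) and Dhx58 (-0.53 to 0.03), so that larger differences remain possible there.

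The rest of the interferon pathway was read from lists of 48 genes, of which 35 were tested over the Tconv, tTreg and resting iTreg libraries and 34 over the iTreg libraries. Of these, 16 rose and 3 fell on activation of Tconvs, 4 rose and 5 fell in tTregs, and 8 rose and 2 fell on restimulation of iTregs, beside 50.2%, 21.9% and 12.8% of all genes in either direction. The counts in Tconvs and tTregs, taken in either direction, were thus near those of all genes. In Tconvs the split by direction differed, since 24.5% of all genes rose and 25.7% fell. With the ORAI inhibitor 1 was higher and 2 lower, beside 3.30% of all genes in either direction. With CsA 0 were higher and 2 lower, beside 2.92%. The interferon genes Ifna1, Ifna2, Ifna4, Ifna5, Ifnb1, Ifne, Ifnl2 and Ifnl3 were at 0 in every group. Of the ligands, Ifng alone was high enough to be tested. It was 1.03, 5.63 and 7.90 in resting Tconvs and 37.7, 28.5 and 26.2 in activated Tconvs, with the groups well apart (2.67 ± 0.71, adjusted p = 0.00425). In tTregs it was at most 5.69 at rest and 0.946 after activation. It was 2.11, 3.03 and 10.6 in resting iTregs and 13.1, 19.1 and 18.2 in restimulated iTregs, a difference that did not pass the test (adjusted p = 0.0652), and 2.04, 5.13 and 0 with CsA (-2.73 ± 0.67, adjusted p = 0.0219). With the ORAI inhibitor it was 2.04, 6.16 and 6.14 (-1.71 ± 0.67, adjusted p = 0.154).

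Of the 5 receptor genes tested, 2 rose and 1 fell on activation of Tconvs, and 0 rose and 1 fell in tTregs. Of the 6 genes for kinases, STAT proteins and Irf9, 4 rose and 1 fell in Tconvs. In tTregs 1 of these 6 rose and 0 fell, and on restimulation of iTregs 3 rose and 0 fell. The shares of all genes in either direction were 50.2%, 21.9% and 12.8%. The receptor gene that fell in Tconvs and tTregs was Ifngr1, which encodes a chain of the interferon-γ receptor. It was 8734, 8790 and 9210 in resting and 1203, 1263 and 1294 in activated Tconvs (-2.83 ± 0.07, adjusted p = 2.58e-13), and 28077 ± 1533 in resting and 17166 ± 1159 in activated tTregs (-0.71 ± 0.07, adjusted p = 6.26e-06). Irf1 rose by 2.02 ± 0.10 (adjusted p = 2.01e-10) in Tconvs and by 0.98 ± 0.07 (adjusted p = 7.15e-08) in iTregs, and Irf8 by 6.95 ± 0.27 (adjusted p = 2.6e-11), 1.36 ± 0.27 (adjusted p = 0.00174, tTregs) and 0.74 ± 0.18 (adjusted p = 0.00621, iTregs). Irf7, a driver of type I interferon genes, was 285 ± 16.9 in resting Tconvs, 196 ± 14.2 in resting tTregs and 15.5 ± 6.89 in resting iTregs. The iTreg level was lower, with log2 differences of -4.21 ± 0.24 (adjusted p = 4.44e-10) and -3.67 ± 0.24 (adjusted p = 2.57e-09). Socs1, a brake on JAK kinases, rose by 2.80 ± 0.25 (adjusted p = 1.86e-07) in activated Tconvs. With the ORAI inhibitor, Stat2 was lower than in restimulated iTregs (-0.62 ± 0.07, adjusted p = 6.13e-05), as was Irf8 (-0.66 ± 0.18, adjusted p = 0.0351). With CsA the differences were -0.46 ± 0.07 for Stat2 (adjusted p = 0.000826), under the threshold of size, and -0.19 ± 0.18 for Irf8 (adjusted p = 0.584). Of the 6 genes for kinases, STAT proteins and Irf9, 1 other than Stat2 passed as lower with CsA, beside 1.35% of all genes.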

How the data were processed

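Modified SMART-seq2 libraries were trimmed with cutadapt 1.18, aligned with STAR 2.5.3 and counted with RSEM 1.3.0 on GENCODE genes of GRCm38, per the study's methods and processing notes. The signal that the authors deposited holds gene counts scaled by a size factor of each library (the study used DESeq2 1.26). In every library 100% of values were whole multiples of the smallest within 0.01 reads, which gave the reads. Library preparation was unstranded, so overlapping genes cannot be separated. The chromatin accessibility and CUT&Tag samples were not analysed here.

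Genes that reached 10 normalized counts in 3 or more libraries were fitted as log2(normalized count + 1) with limma 3.58.1 in R 4.3.3, one fit of 15 libraries (resting and activated Tconvs and tTregs, resting iTregs) and one of 12 (iTregs). A fold change on this scale understates that of low genes. P-values are two-sided and adjusted by Benjamini-Hochberg over all genes tested. Outside the interaction, where a group held few reads, ratios of summed reads per size factor with 95% exact binomial intervals replace the fitted fold or stand beside it. The script was tested on simulated data. Members named were, per comparison, the top 5 rises and top 5 falls past the thresholds, with contrasting members of each role. Members and lists were chosen with earlier results of these data known. Alternatives were other scalings, pseudocounts of 0.1 and 5, no filter, only the groups compared, a replicate block, each library left out, and, chosen after seeing the data, edgeR 4.0.16 (quasi-likelihood, TMM) and DESeq2 1.42.0 on the reads. Positions and exons are from GENCODE M21, older than the study's release. Figures were drawn with matplotlib.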

Additional observations from a re-analysis of the deposited data

Results flagged for a closer look

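The response to activation was tested for a difference between Tconvs and tTregs as an interaction in limma with Benjamini-Hochberg adjustment. It was higher in Tconvs for 28 members and lower for 3, beside 17.0% and 17.7% of all genes. Given here are 8 of them, the top 5 with a higher response and all 3 with a lower one. The log2 response of Tconvs exceeded that of tTregs by 5.40 for Iigp1, 4.80 for Irgm1, 3.72 for Ifit1, 3.58 for Ly6a and 3.38 for Ifit3b. It was below that of tTregs for Rsad2 (-1.32), Samd9l (-1.06) and Ifit1bl1 (-0.64). Ifit3b rests on 28 reads in resting and 2 in activated tTregs, and the calls of Rsad2 and Ifit1bl1 were lost in 15 and 14 of 21 alternative settings.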

How the results depend on the processing

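The counts of changed members stayed within 1.5 times their reported values under every alternative run, except without ORAI inhibitor replicate 1, which gave 4 in place of 7 for the ORAI inhibitor effect. With each library left out in turn, the counts ranged from 32 to 34 for Tconv activation, 14 to 21 for tTreg activation, 27 to 30 for their difference, 24 to 26, 40 to 40 and 37 to 41 for the resting comparisons of tTregs with Tconvs, iTregs with Tconvs and iTregs with tTregs, 15 to 19 for restimulation, 4 to 7 for the ORAI inhibitor, 5 to 7 for CsA and 0 to 0 between the inhibitors. Of 1216 recomputed values for single members, 1132 kept their side of the threshold, 84 fell below it and 0 reversed. Quantile normalization moved the median of all genes by -0.13 (iTregs over Tconvs) and -0.11 (iTregs over tTregs), and 0 called members changed sign. The labels do not say that replicate numbers pair libraries, and not every same-numbered pair had a correlation of deviations above 0.1. Its mean was -0.01 over 30 pairs (6 above 0.1) for Tconvs, tTregs and resting iTregs. Among iTreg groups it was 0.15 over 18 pairs (10 above 0.1), against -0.08 over 36 pairs with different numbers (4 above 0.1), a hint of shared deviations. With replicate number as a block the counts were 35, 19, 29, 28, 40, 39, 18, 7, 6 and 0, in the order above. The tTreg libraries were the shallowest, and several IFIT and OAS genes in iTregs (Ifit3, Ifit3b, Oas2, Oasl1 and Oasl2) were near the floor of 3 reads, which limits folds there.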
